A study of Oryza sativa with 2 samples.

Results

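Cytokinin response and turnover in rice root hairs were read from 9 genes, out of 23325 loci on the array. They were chosen by locus identifier, as every spot that was not a control on either array and whose systematic name began with one of the 9 identifiers, and 14 probes met this rule. The genes are the type-A response regulators RR1 (Os04g0442300), RR2 (Os02g0557800), RR4 (Os01g0952500), RR6 (Os04g0673300), RR9 (Os11g0143300) and RR10 (Os12g0139400), the cytokinin oxidases CKX2 (Os01g0197700) and CKX4 (Os01g0940000), and LOG (Os01g0588900). The chromosome of each is given by the digits after Os in its identifier.

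Both samples belong to 1 group, titled 07g39940 over, with the replicate numbers 1 and 2 (n = 2), and are called sample 1 and sample 2. The labels describe root hairs of the cultivar Don-gin, taken from seedlings kept for 3 days on MSO medium, and rubbed off the frozen seminal roots. They do not say what "over" stands for, whether the samples are separate lines, plant batches or repeats, and no control group was analysed here. The number in the titles was found in 0 names of probes or loci in the files. The locus names there have more digits than this number, so the search does not show whether the gene has a probe. The level of that gene was not analysed here. Every difference below is between these 2 arrays, may be technical, and carries no test.

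Cytokinins are adenine-derived hormones that promote cell division in shoots and restrain root growth and branching. They are sensed by histidine kinase receptors, which pass phosphate through phosphotransfer proteins to type-B response regulators in the nucleus. Type-B regulators are transcription factors, and among the genes they switch on are type-A regulators, which lack the DNA-binding output and dampen the same signal. Transcripts of type-A regulators are therefore widely used as a readout of cytokinin response. The amount of hormone is set in part by LOG, which releases the active base from its ribotide, and by cytokinin oxidases (CKX), which cleave the hormone irreversibly.

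In these root hair samples all 6 type-A regulators and LOG were well above background on both arrays, and of the 2 oxidases CKX2 was and CKX4 was not. This made 8 of 9 genes, beside 84% of all loci on the array, so the share is near the background. In that count CKX2 rests on a probe that carries the name of another locus. RR9 and RR10 are near-identical, and their probes were not taken to separate them. Of the 8 detected genes, 0 were at least 2-fold apart between the samples, where 2.29% of all loci detected on both arrays were. With the scaling used here the largest distance was 1.24-fold, at RR1, while with normexp correction and with median scaling it was at RR2 (log2 differences of 0.20 and 0.29), with quantile normalization at RR4 (0.19), and without the filter on dim probes at CKX2 (-0.33). A probe counts as well above background by the call of the scanner software, and signals are in arbitrary units and cannot be compared between probes. The software's call was lenient, since 6 of 24 random-sequence and artificial control probes also received it, the brightest at 44.3 in sample 1 and 48.3 in sample 2. All 8 detected genes had a probe above these values on both arrays, as did 69.5% of all loci.

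**Figure D1:**
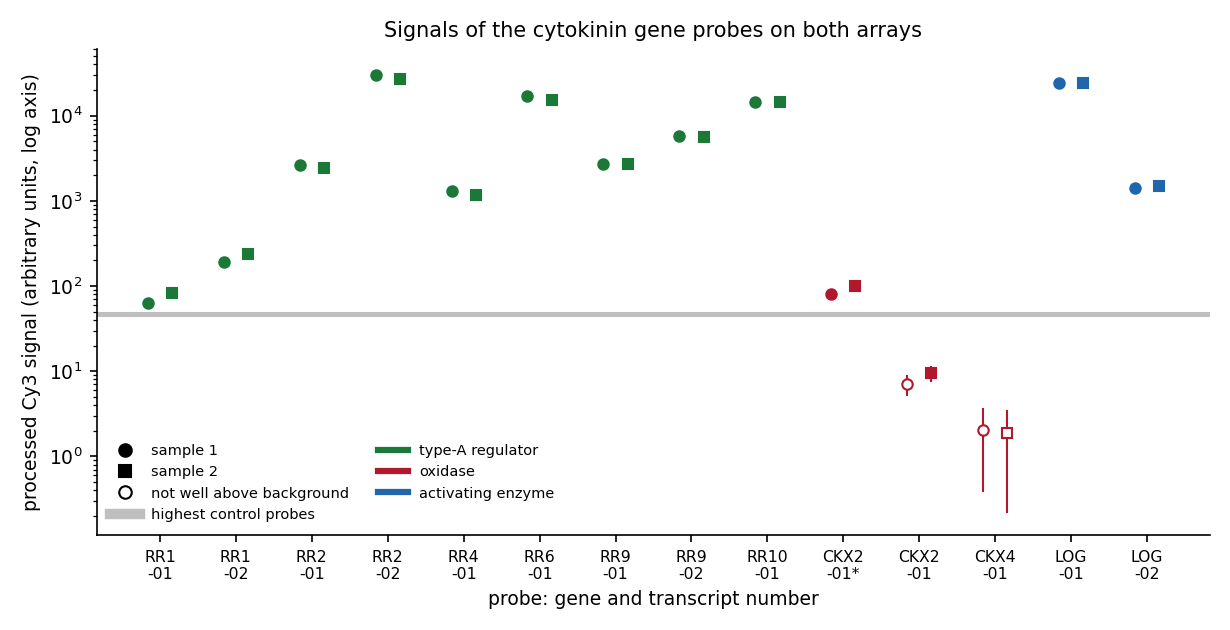
Processed Cy3 signal (log axis, arbitrary units) of each of the 14 probes in sample 1 (circles) and sample 2 (squares), with the software's error of the signal as bars, and open symbols where a probe was not well above background. The starred CKX2 probe carries the name of another locus, the grey band marks the brightest control probes (44.3 and 48.3), and the pairs of symbols lie close together for every probe above it.

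Among the type-A regulators, RR1, which is induced at crown root initiation in rice, was higher in sample 2. Its probe for transcript 01 gave 62.4 in sample 1 and 82.3 in sample 2, and its probe for transcript 02 gave 193 and 236. Both probes were thus higher in sample 2, by 0.37 and 0.25 on the log2 scale after scaling. Over both probes the log2 difference, sample 1 minus sample 2, was -0.31 (SD 0.080 between probes), or 1.24-fold. Loci detected on both arrays were split by mean signal into 4 bins of equal size, and in the bin of RR1 19.6% of loci lay at least as far apart.

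RR2, which the homeobox factor WOX11 represses in rice crown roots, was higher in sample 1. Its probe for transcript 02 read 30184 in sample 1 and 27045 in sample 2, a log2 difference of 0.19 (1.14-fold). Of the loci in the brightest bin, 8.60% lay at least this far apart, so the distance is on the large side for a bright probe yet small as a fold. The probe for transcript 01 was left out because its spot was flagged as an outlier on at least 1 array. Its signals of 2658 and 2402 differed by 0.18, within 0.012 of the other probe.

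RR4 and RR6 shifted by similar amounts in the same direction. RR4, with 1 probe, had 1293 in sample 1 and 1180 in sample 2 (log2 difference 0.17). RR6, whose overexpression in rice reduces cytokinin sensitivity, had 16997 and 15447 (log2 difference 0.17, 1.13-fold). In their own bins of signal, 18.9% of loci lay at least as far apart as RR4 and 11.2% as RR6.

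RR9 and RR10 lie in a duplicated segment shared by chromosomes 11 and 12 and are near-identical, so their probes were not taken to separate them. RR9 had 2693 in sample 1 and 2722 in sample 2 on the probe for transcript 01, and 5737 and 5693 on the probe for transcript 02. The RR10 probe had 14501 and 14430. After scaling the log2 differences were 0.031 for RR9 (SD 0.019 between probes) and 0.040 for RR10. These are the smallest differences among the type-A regulators, and 76.9% and 70.1% of loci in the brightest bin lay at least as far apart.

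Taking the type-A regulators as a group, 5 of 6 were higher in sample 1 and RR1 was higher in sample 2. Their median log2 difference was 0.10, against -0.021 over all loci detected on both arrays. Of all those loci 44.6% were higher in sample 1 and 55.4% in sample 2 in any amount. Median scaling put 66.0% of all loci higher in sample 1, and 55.1% were so in the authors' deposited table, with the same 5 of 6 regulators higher there. With cyclic loess 50.2% of all loci were higher in sample 1, and again 5 of 6 regulators. The median and the shares over all loci mix bright and dim loci and were not split by signal. The 6 genes include near-identical copies, so the count is no more than a description.

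LOG, named after the lonely guy mutant of rice with its reduced shoot meristem, had close values in both samples. The probe for transcript 01 had 24489 in sample 1 and 24381 in sample 2, and the probe for transcript 02 had 1410 and 1494. The probes leaned in opposite directions, by 0.040 and -0.050, and the log2 difference over both was -0.0054 (SD 0.064 between probes). Of the brightest bin of loci, 95.9% lay at least as far apart.

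Both oxidases raised a question of detection. CKX2, known as the grain number locus Gn1a, rests on 2 probes that disagree in detection. The one whose own name carries the neighbouring identifier Os01g0197600, while its systematic name is that of CKX2, had 81.1 in sample 1 and 101 in sample 2 (log2 difference -0.29, 1.22-fold). The one named for the CKX2 identifier had 7.10 and 9.44, was not well above background in sample 1, and lay below the brightest control probes on both arrays. After scaling, this probe's signal in sample 2 was 1.26-fold the lowest signal called well above background in sample 1 (7.33). The probe's own log2 difference (-0.38) was only 0.74 of the software's error of that difference, so no difference is read from it. The authors' deposited table gave this probe the same log2 value on both arrays (5.33) and no present call. The detection of CKX2 thus depends on the probe that carries another locus name.

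CKX4, whose activation increases crown roots in rice, was not well above background on either array. Its only probe had 2.06 in sample 1 and 1.86 in sample 2, beside negative control medians of 1.81 and 1.74. The lowest signals so called were 7.33 in sample 1 and 7.14 in sample 2, above both values, and no fold is given. A level below what this probe can measure is not an absence of the transcript.

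Levels of the detected genes were averaged over the arrays on the scaled log2 axis, on which 0 is the 75th percentile of an array. Between the samples these genes were at most 1.24-fold apart. RR1 stood at -4.40 ± 0.22, CKX2 at -4.85 ± 0.20, RR4 at -1.08 ± 0.12 and RR9 at 0.59 ± 0.022 (SD, n = 2). LOG stood at 1.19 ± 0.0038, RR10 at 2.47 ± 0.028, RR6 at 2.63 ± 0.12 and RR2 at 3.45 ± 0.14 (SD, n = 2). With 2 arrays such an SD is only the distance between the samples in another form.

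**Figure D2:**
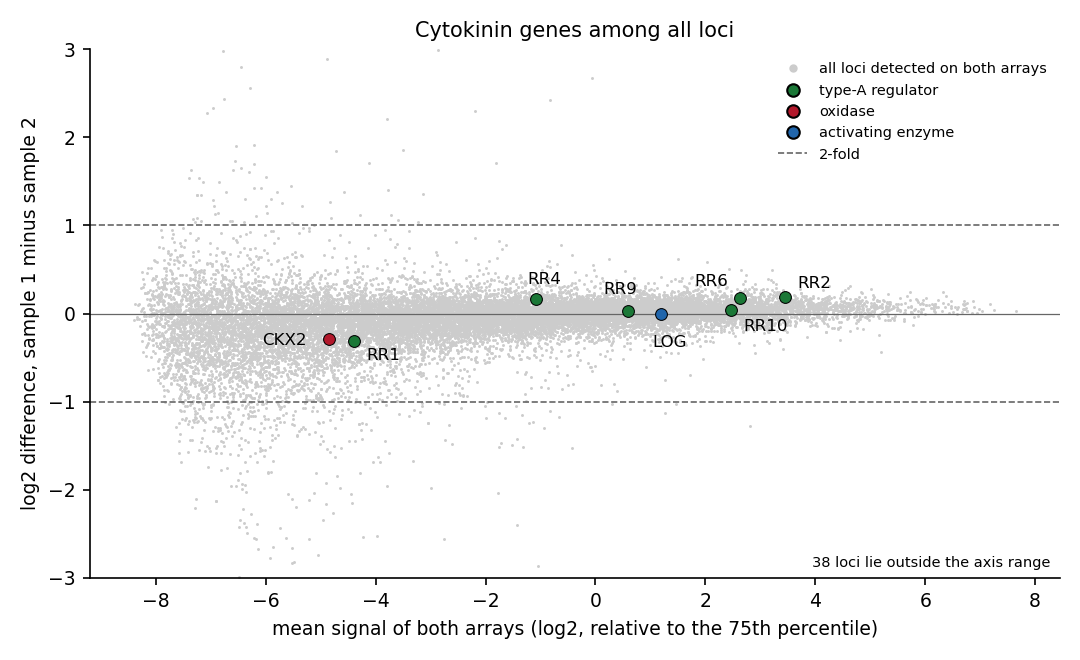
Log2 difference (sample 1 minus sample 2) against the mean scaled signal of both arrays for all 19582 loci detected on both arrays (grey) and the 8 detected cytokinin genes (coloured by role). Grey points spread more at low signal, dashed lines mark 2-fold, the coloured points lie between -0.31 and 0.19, and 38 loci fall outside the axis range.

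The spread between the arrays grew toward low signal, and the genes were read against it. The median absolute log2 difference was 0.25 in the dimmest bin of loci, 0.13 and 0.077 in the next bins and 0.069 in the brightest, and the share at least 2-fold apart was 6.54%, 2.02%, 0.531% and 0.0613%. RR1 and CKX2 fell in the bin above the dimmest, RR4 in the next, and RR2, RR6, RR9, RR10 and LOG in the brightest. Over the 8 genes the median absolute log2 difference was 0.17, against 0.11 over all loci detected on both arrays, which are not matched for signal.

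The scanner software also gives an error for each signal, which for bright spots is a nearly fixed share of the signal. For the 12 probes of these genes detected on both arrays, the left-out RR2 probe included, the error of the log2 difference was 0.20 to 0.21. The difference exceeded 1 such error for 3 of 12 probes, both of RR1 and the brighter of CKX2, and exceeded 2 errors for 0 of 12. Of all detected spots of loci, 25.8% exceeded 1 error and 10.2% exceeded 2.

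The remaining steps of the pathway were read from a list of 37 further loci, of which 27 were on the array. With 84% of all loci as the background, here and for each role below, 22 of the 27 were detected on both arrays. Of these 22, 0 were at least 2-fold apart, beside 2.29% of all loci, and 15 were higher in sample 1 and 7 in sample 2, beside 44.6% of all loci higher in sample 1. With cyclic loess the split was 13 and 9, beside 50.2% of all loci higher in sample 1, and 17 and 5 by the authors' deposited table, where 55.1% of all loci were higher in sample 1. Their median log2 difference was 0.037. The median absolute difference was 0.077, against 0.11 over all loci. These values are not matched for signal, as all loci gave 0.25 in the dimmest bin and 0.069 in the brightest.

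Upstream of the regulators, 3 histidine kinase receptors and 2 phosphotransfer proteins were detected, all that the array held of the listed ones. The receptor HK4 had 4090 in sample 1 and 4668 in sample 2 (log2 difference -0.16). HK3 had geometric mean signals over 4 probes of 7926 and 8043 (0.012). The phosphotransfer proteins, which carry phosphate from receptor to regulator, were AHP1 at 3322 and 3391 (0.0036, SD 0.060 between 3 probes) and AHP2 at 9060 and 8857 (0.066, SD 0.068 between 3 probes). These 4 loci were 1.12-fold apart or less.

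Type-B regulators, the transcription factors that act on type-A genes, were detected at 5 of 5 loci on the array. RR23 had 3929 in sample 1 against 4034 in sample 2, a log2 difference of -0.0049 (SD 0.058 over 3 probes). The locus Os01g0904700, listed with them, had 19.7 and 14.3 (0.49, 1.40-fold, 1 probe). Both its signals lay below the brightest control probes, as did those of another type-B locus (15.5 in sample 1 and 19.4 in sample 2). Of 3 other listed type-A loci on the array 2 were detected, RR11 at 176 and 170 (0.081) and Os02g0830200 at 742 and 741 (0.035), and RR5 was not well above background on either array.

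Hormone activation and breakdown went beyond LOG and CKX2. Of 9 LOG-like loci on the array 6 were detected, with LOGL4 at 619 in sample 1 and 633 in sample 2 (log2 difference 0.00047). LOGL8 was furthest apart at 10242 and 12618 (-0.27, 1.20-fold), and 2.86% of the brightest bin of loci lay at least as far apart. Of 5 other oxidase loci on the array 4 were detected. Among them CKX11 had 16.3 and 24.4 (-0.55, 1.46-fold, SD 0.036 between 2 probes), and CKX9 had 26.5 and 26.4 (0.039). The CKX11 difference was -0.32 with quantile normalization and -0.14 with normexp correction, and the authors' deposited table gave -0.17. Which pathway locus was furthest apart changed with the setting: it was CKX11 with the scaling used here, Os01g0904700 with median scaling (0.59), quantile normalization (0.71) and cyclic loess (0.56), and LOGL8 with normexp correction (-0.26) or by the authors' deposited table (-0.28). Signals of CKX11 and CKX9, and of a LOG-like locus (10.3 in sample 1 and 10.2 in sample 2), lay below the brightest control probes on both arrays. The 2 listed trans-hydroxylase loci were not among those on the array.

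**Figure D3:**
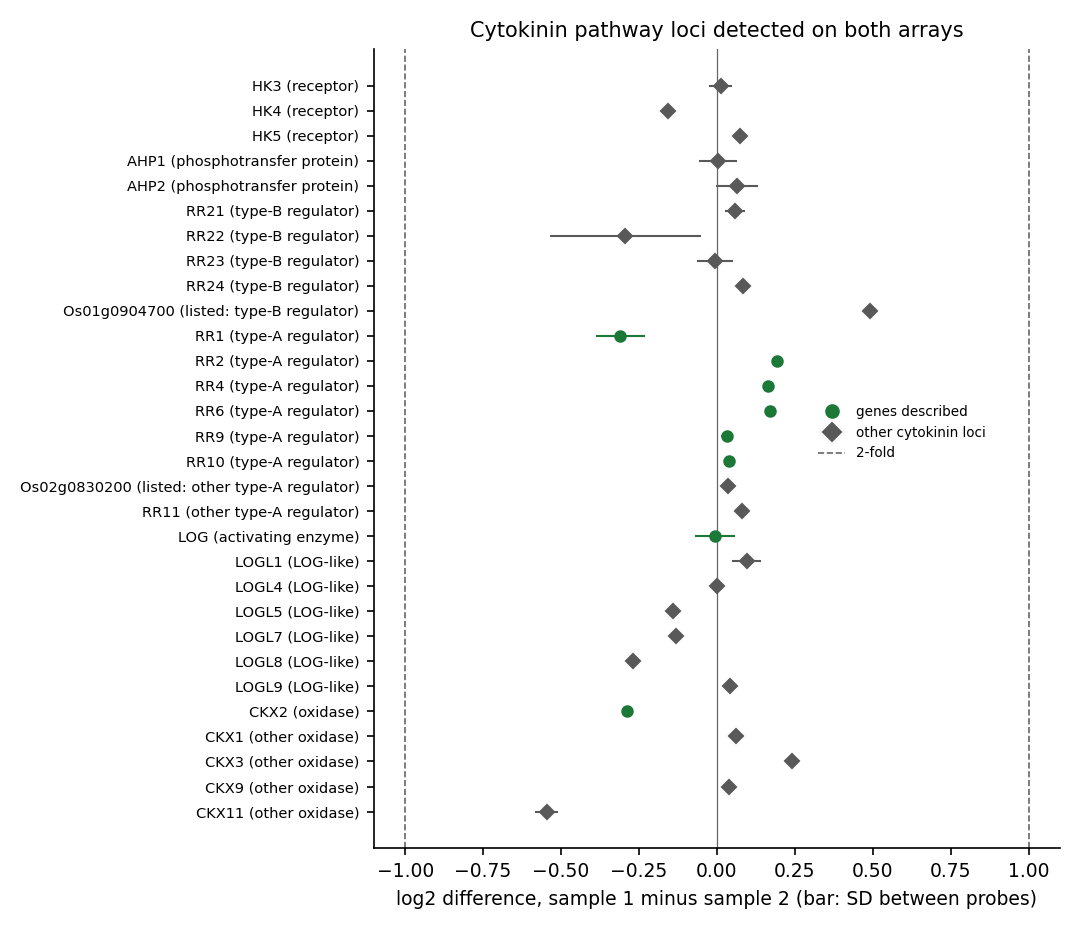
Log2 difference (sample 1 minus sample 2) of the 30 cytokinin loci detected on both arrays, by role, with the 8 genes described in green and the 22 other loci in grey. Bars are the SD between the probes of a locus, dashed lines mark 2-fold, and the points run from -0.55 (CKX11) to 0.49 (Os01g0904700).

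Beside 84% of all loci, here and for each list below, root hair markers were detected at 5 of 5 loci. Of these 3 were higher in sample 1 and 2 in sample 2. Their summed signals were 257756 in sample 1 and 241826 in sample 2, a direction set by Os10g0122600 alone (148676 and 128816). CSLD1, needed for hair elongation, gave 46041 and 51117, and Os01g0111500 was 2.03-fold higher in sample 2 (98.8 and 205). Each sum in this paragraph takes all loci of a marker list and the geometric mean of all their unflagged probes, detected or not. Of 6 stele and endodermis markers 2 were detected on both arrays, CASP1 and PHO1;2. Both were higher in sample 1, CASP1 1.54-fold and PHO1;2 1.23-fold. SHR1 was detected only in sample 2, and SCR1, SCR2 and HKT1;5 on neither. The sum over all 6 was 279 in sample 1 and 217 in sample 2. Markers of dividing cells were detected at 4 of 4 loci. All were higher in sample 2 (summed 1170 and 1403), as were 55.4% of all loci detected on both arrays. In their bins of signal 48.5% of loci lay at least as far apart as MCM3, 42.1% as CDKB1;1, 11.2% as PCNA and 8.85% as CDKB2;1. Photosynthesis loci were also higher in sample 2, at 5 of 5 loci (summed 65.7 and 445, over 24 probes that include dim ones). In sample 1 all 5 lay below the brightest control probe (44.3). Seed storage loci were higher in sample 1 at 4 of 4 detected on both arrays (8238 and 121, over 6 loci). Another 2 were detected only in sample 1. In sample 2 those 4 lay below the brightest control probe (48.3). The part of such cells in the differences of the cytokinin genes was not tested, and in bulk RNA fewer cells of a type and less RNA per cell cannot be told apart.

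Other ways of processing left all 8 differences under 2-fold. In 10 settings for CKX2 and 9 for each other gene the log2 difference stayed within -0.32 to -0.15 for RR1, 0.14 to 0.29 for RR2, 0.15 to 0.26 for RR4 and 0.099 to 0.27 for RR6. It was 0.018 to 0.13 for RR9, 0.0065 to 0.14 for RR10, -0.020 to 0.092 for LOG and -0.38 to -0.049 for CKX2. In the authors' deposited table CKX2 differed by -0.049 on its brighter probe, and that table's present call was given to 12 of the 14 probes, all but the dimmer CKX2 probe and the CKX4 probe.

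**Figure D4:**
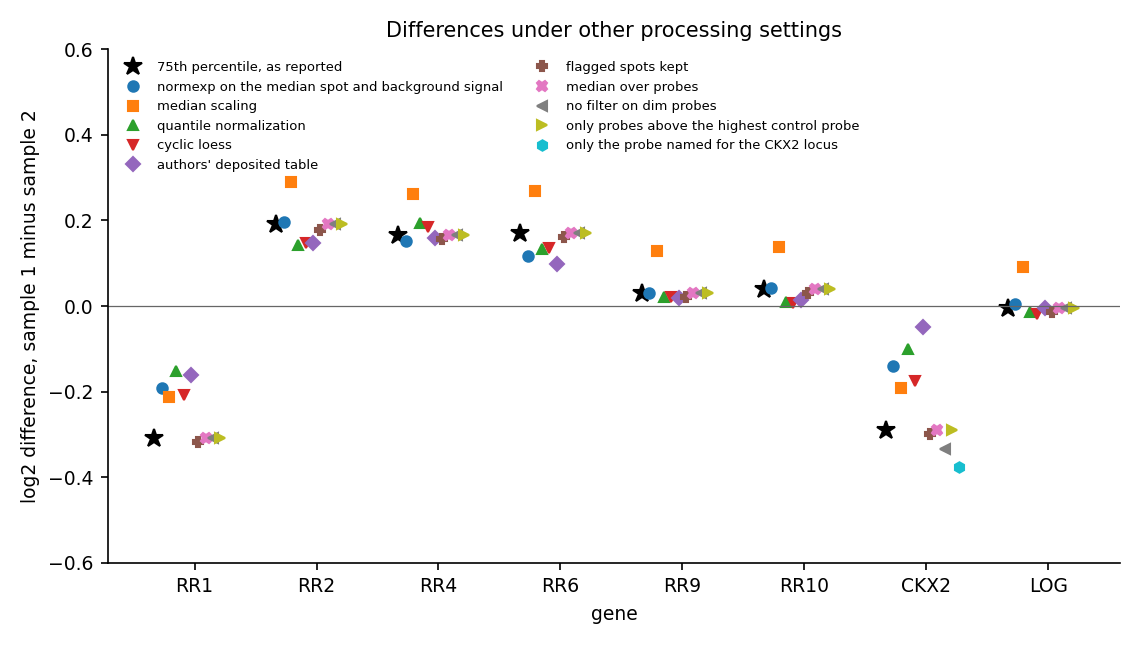
Log2 difference (sample 1 minus sample 2) of the 8 detected genes as reported (black stars) and under each other processing setting (coloured symbols). RR1 and CKX2 stay below 0, RR2, RR4, RR6, RR9 and RR10 stay above it, LOG lies on both sides, and the values run from -0.38 to 0.29.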

How the data were processed

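RNA of root hairs was hybridised to 1 one-colour array per sample (2 arrays on 1 slide). The authors deposited the intensity of each spot, of which the processed Cy3 signal was taken. Background subtraction and detrending within the array had been done by Agilent Feature Extraction (11.5.1.1 per the file headers, 9.1 per the submitters' processing notes). A table deposited by the authors holds log2 values of both arrays and present calls, with no account of its making in the labels or headers.

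Of 45151 spots, 1417 scanner controls, 590 spots of named control probes and 1436 spots flagged as outliers on at least 1 array were removed. The log2 signal was scaled to the 75th percentile of each array, and probes were assigned to loci by systematic name. Differences were averaged over the probes of a locus well above background on both arrays. The number of arrays limits the precision, and no test was made with 1 group. Alternatives covered normexp (limma 3.58.1, offset 50, on the median signals because the files hold no mean signal), median, quantile and cyclic loess scaling, the authors' table and the filters. The steps were tested on simulated data (Python 3.11.15, R 4.3.3).

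The genes and lists were chosen with earlier results of these data known. Named are all 9 genes and, of the other cytokinin loci, any at least 2-fold apart and, in each role, those with the largest and the smallest absolute difference. All 9 symbols, and 27 of the 37 others, stood once in the RefSeq gene table (assembly ASM3414082v1) on the chromosome of the locus identifier, and the other loci are given by identifier. No sequence is shown.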

Additional observations from a re-analysis of the deposited data

How the results depend on the processing

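Of 73 values of the genes' differences under other settings, 2 had the other sign, both at LOG (0.0059 with normexp correction and 0.092 with median scaling, against -0.0054). Median scaling moved the median of all loci to 0.076 and those of the genes with it. The count of genes at least 2-fold apart stayed at 0 under the 9 other settings compared, as did that of the other cytokinin loci, while 111 (normexp) to 483 (no filter on dim probes) of all loci detected on both arrays passed, against 448 as reported and 135 among 16218 loci with only probes above the brightest control probe. The count of genes detected was 8 in sample 1 alone, in sample 2 alone, above the brightest control probe and by the authors' present calls. For the other cytokinin loci it was 17 above the brightest control probe and 18 by the present calls, against 22. CKX2 rests on 1 probe named for another locus. The normexp setting and the CKX2 probe named for its own locus (-0.38) were chosen after seeing the data. Normexp on the mean spot signal was not run, since the files hold no such column, nor was the slide as a block, since there was 1 slide. No paired analysis was possible because there was 1 group. Dim signals limit RR1, CKX2 and CKX4 most.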
